A study of Arabidopsis thaliana with 12 samples.

Results

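Arabidopsis root tips that had spent 24 h on estradiol were compared with root tips that had spent 6 h on it, so that both sides of the comparison carried the induced transgene and both had been treated. The comparison rests on 6 of the 12 arrays of the series, 3 at 24 h and 3 at 6 h, picked by the time in their titles, and covers all 22746 probe sets that are not array controls. Seedlings at 24 h and at 6 h were alike in genotype: all carried pCRE1_XVE::MIR165A in the Col-0 background, were transferred to plates with 5 µM ß-estradiol in ethanol, and were collected at 4 days post germination. The other 6 arrays, 3 at 10 h on the same dose and 3 on mock plates with ethanol alone (called 0 h), entered the estimate of the spread and serve below to place the values in the time course. Transfers were staggered, so that seedlings of all groups were of the same age to within 4.5 h, and each array measured the RNA of about 200 dissected tips of 0.5 mm. Per the labels the 3 arrays of each time are biological replicates.

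XVE is a chimeric transcription factor that estradiol activates, and here it drives the precursor MIR165A from the CRE1 promoter, which works in the vascular core of the root. Transcripts of class III HD-ZIP genes are cut under the guidance of miR165. These genes encode transcription factors that pattern the xylem and act on auxin and cytokinin responses in the stele. Auxin acts by the degradation of Aux/IAA repressors, after which auxin response factors raise the transcription of Aux/IAA genes, of GH3 genes, whose enzymes conjugate auxin to amino acids, and of SAUR genes. A difference between 24 h and 6 h holds the time under induction together with the time on the estradiol plate, since estradiol-treated seedlings without the transgene are not analysed here. The promoter confines the induction to part of the tip, so changes in the stele are diluted by the RNA of the other tissues.

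The signals are log2 values, so a difference of 1 is a doubling, and all levels and differences below are on that scale. Array medians lay between 5.98 and 6.12 among the 24 h arrays and between 6.09 and 6.11 among the 6 h arrays. The median SD between replicate arrays was 0.122 at 24 h and 0.101 at 6 h. Replicate 3 at 24 h stood apart most among the 6, with the lowest median, a mean correlation of 0.994 with its own group against 0.9953 and 0.9961 for the other 24 h arrays, and the lowest array weight, 0.344. Its mean over TRY, EXPA7 and EXPA18, the measured members of the root hair and epidermis list, was the highest of the 24 h group: the arrays read 4.85, 5.13 and 5.75 at 24 h, against 4.94, 5.01 and 5.10 at 6 h. Markers of the root tip were present on both sides. The meristem gene BBM averaged 6.69 at 24 h and 6.83 at 6 h, the ground tissue factor JKD averaged 5.91 at 24 h and 5.99 at 6 h, and the vascular genes MOL1 and OPS averaged 7.19 and 5.61 at 24 h and 7.18 and 5.35 at 6 h. None of the 4 passed the test. The root cap list had no measured gene.

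At 24 h against 6 h, 384 probe sets passed limma's adjusted p of 0.05, which is 1.69% of those tested. Of these, 173 were higher at 24 h (0.761% of all) and 211 were lower (0.928% of all), and 197 had a gene name. The rises had a median of 0.65 and reached 2.37, and the falls had a median of -0.58 and reached -3.23. A change of at least 1 was seen in 54, of which 26 rose and 28 fell. The 3 arrays at 24 h and the 3 at 6 h did not overlap for any of the 384, where 19.6% of all probe sets tested did not overlap, and at an unadjusted p under 0.05 the count was 3472 (15.3%). The median difference over all probe sets was -0.0039. Dropping 24 h replicate 2 left 181 calls, dropping 6 h replicate 1 left 177, and dropping 6 h replicate 2 left 110. Without 24 h replicate 3 it was 398, of which 251 were among the 384, and the higher share was 58.3% in place of 45.1%. In all, 95 of the 384 passed with each of the 12 arrays left out in turn, 52 higher and 43 lower, 46 of them named. Where a call is said below to end without several arrays, each was left out alone. All gene lists were chosen with earlier results of these data known, so their counts are description only.

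**Figure D1:**
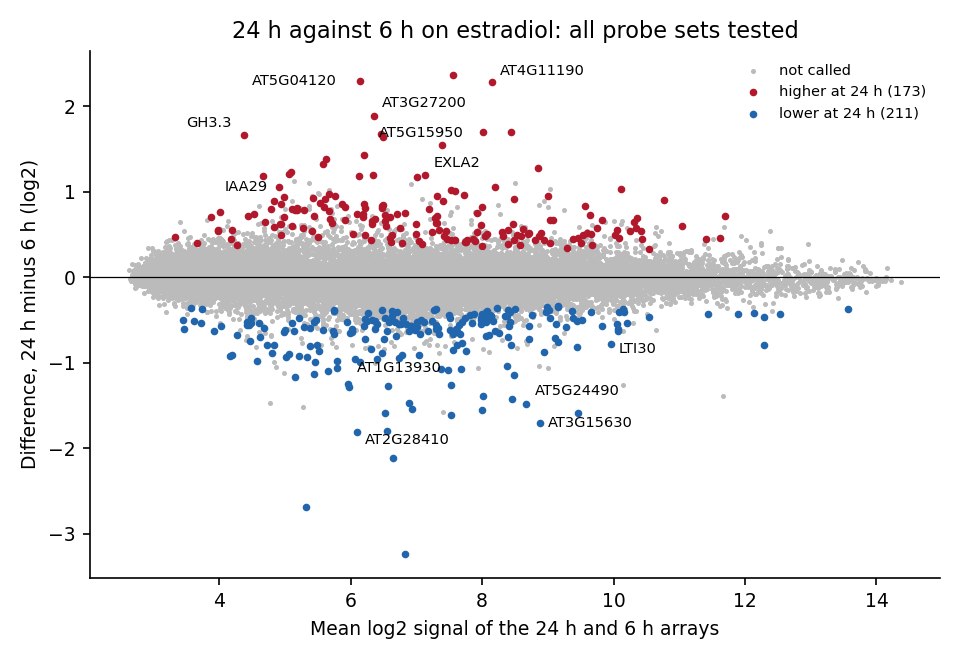
Difference of the group means, 24 h minus 6 h (log2, vertical axis), against the mean log2 signal of the 6 arrays (horizontal axis) for 22746 probe sets. Red points are the 173 called higher at 24 h, blue points the 211 called lower and grey points the rest, and the unlabelled extremes at 2.37 and -3.23 have no gene name.

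**Figure D2:**
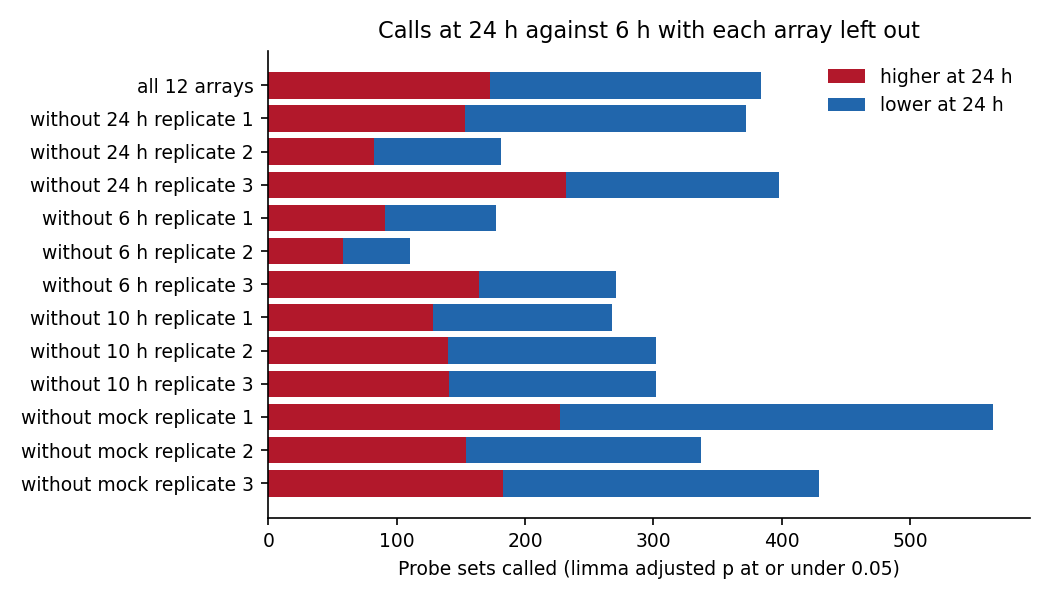
Number of probe sets called (horizontal axis) with all 12 arrays and with each array left out (rows), split into those higher at 24 h (red) and lower at 24 h (blue). The count lies between 110 without 6 h replicate 2 and 565 without mock replicate 1.

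PHV, an HD-ZIP III gene cleaved under the guidance of miR165, was the only member of its family with a named probe set. It read 6.74, 6.74 and 6.44 on the 24 h arrays, against 6.70, 6.80 and 6.70 on the 6 h arrays. The groups overlapped, and the difference was -0.10 (SE 0.10, limma adjusted p = 0.72), with a 95% interval of -0.31 to 0.12. An exact two-sided permutation test gave p = 0.6, where 3 arrays against 3 cannot go below 0.1. The sign of this small difference depended on 24 h replicate 3, without which it was 0.0027. PHV gave no detectable change between the times, while its means at 24 h and 6 h both lay under the mock mean of 7.05. Neither gap from mock tips passed, at -0.31 for 6 h (limma adjusted p = 0.28) and -0.41 for 24 h (limma adjusted p = 0.088). At 10 h PHV differed from mock tips by -0.52 (limma adjusted p = 0.0063). In whole tips, fewer cells of a type and less RNA per cell cannot be told apart, here and for every gene that follows.

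Genes of the auxin pathway moved in both directions. GH3.3, which encodes an enzyme that conjugates auxin to amino acids, read 5.09, 5.04 and 5.50 on the 24 h arrays, against 3.56, 3.62 and 3.46 on the 6 h arrays. The gene rose by 1.66 (SE 0.14, limma adjusted p = 2.32e-05), a 3.16-fold difference from a 6 h level that lay low on the scale. IAA29, an Aux/IAA gene, read 5.65, 5.33 and 5.35 on the 24 h arrays, against 4.36, 4.44 and 4.36 on the 6 h arrays, and it rose by 1.06 (SE 0.12, limma adjusted p = 0.000606). Both calls held without any of the 12 arrays. At 10 h both were nearer their 6 h than their 24 h level, GH3.3 at 3.61 and IAA29 at 4.69, and the mock means were 3.46 and 4.46. Between 10 h and 24 h GH3.3 differed by 1.60 (limma adjusted p = 4.47e-05) and IAA29 by 0.76 (limma adjusted p = 0.00805).

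Of the 12 measured GH3 genes 2 passed, both higher, against 1.69% of all probe sets. The second was AT1G48670, which read 5.22, 5.32 and 5.02 on the 24 h arrays, against 4.73, 4.74 and 4.58 on the 6 h arrays and rose by 0.50 (SE 0.11, limma adjusted p = 0.0429). The median over the 12 was 0.36, where that of all probe sets was -0.0039, and 9 of the 12 differences were above 0. GH3.17, whose enzyme conjugates auxin to glutamate, averaged 8.66 ± 0.23 at 24 h and 8.24 ± 0.13 at 6 h (SD, n = 3 each) and did not pass (limma adjusted p = 0.0783). GH3.1 (0.43, limma adjusted p = 0.112), AT1G23160 (0.50, limma adjusted p = 0.0945) and WES1 (0.25, limma adjusted p = 0.275) did not pass either. Of the list 8 were dim, with a mean under 5, where this kind of signal understates changes. The call on AT1G48670 ended without 24 h replicate 1, 24 h replicate 2, 6 h replicate 1, 6 h replicate 2, 6 h replicate 3, 10 h replicate 2 and 10 h replicate 3, with limma adjusted p up to 0.152, which left GH3.3 as the 1 GH3 gene called. Without 24 h replicate 3 the count was 5 of the 12.

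In the Aux/IAA family 3 of 7 measured genes passed, IAA29 in the higher direction and IAA20 and IAA31 in the lower, where 1.69% of all probe sets did. IAA20, an atypical member linked to xylem patterning, read 4.20, 4.29 and 4.26 on the 24 h arrays, against 4.83, 4.78 and 4.57 on the 6 h arrays and fell by 0.48 (SE 0.09, limma adjusted p = 0.0195). IAA31, another member of the family, read 3.33, 3.33 and 3.41 on the 24 h arrays, against 3.91, 3.98 and 3.72 on the 6 h arrays and fell by 0.51 (SE 0.11, limma adjusted p = 0.0365). In neither gene did the groups overlap, as in every call, and both lay low on the scale. IAA30, the closest relative of IAA20, averaged 3.71 ± 0.11 at 24 h and 3.83 ± 0.15 at 6 h (SD, n = 3 each) and did not pass (limma adjusted p = 0.721), both means being under the mock mean of 4.55. IAA18 (-0.07), IAA33 (-0.24) and IAA34 (0.08) did not pass. The call on IAA20 ended without 24 h replicate 1, 24 h replicate 2, 6 h replicate 1 and 6 h replicate 2 (limma adjusted p up to 0.109), and that on IAA31 without 24 h replicate 1, 24 h replicate 2, 24 h replicate 3, 6 h replicate 1, 6 h replicate 2, 10 h replicate 1, 10 h replicate 2 and 10 h replicate 3 (limma adjusted p up to 0.177). With arrays centred on the median or the 75th percentile IAA31 was no longer called.

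IAGLU, an indole-3-acetate glucosyltransferase gene singled out after its values were seen, read 8.96, 8.89 and 8.50 on the 24 h arrays, against 8.19, 7.92 and 8.36 on the 6 h arrays and rose by 0.62 (SE 0.13, limma adjusted p = 0.0304). Its call ended without 24 h replicate 1, 24 h replicate 2, 6 h replicate 1 and 6 h replicate 2 (limma adjusted p up to 0.165). The 2 SAUR genes that could be found by locus did not pass. Among 5 genes of auxin synthesis and transport YUC6 came nearest, at 0.36 (limma adjusted p = 0.134), with an unadjusted 95% interval of 0.12 to 0.61. LBD16, a lateral root factor downstream of auxin, differed by -0.14 (limma adjusted p = 0.593). Of 6 cytokinin response regulator genes none passed limma, with differences between -0.12 and 0.08, and RR16 came nearest (limma adjusted p = 0.714). LHW, a bHLH factor of early vascular cells, was the 1 measured gene of the xylem list and differed by -0.09 (limma adjusted p = 0.749, 95% interval -0.33 to 0.14).

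The largest named rise was AT5G04120, of the phosphoglycerate mutase family, which read 7.95, 7.74 and 6.18 on the 24 h arrays, against 4.64, 5.11 and 5.23 on the 6 h arrays and rose by 2.30 (SE 0.33, limma adjusted p = 0.00299). Replicate 3 was the lowest at 24 h, still above the 6 h arrays as the choice of genes required. AT4G11190, a dirigent family gene, read 9.65, 9.19 and 9.03 on the 24 h arrays, against 7.04, 6.89 and 7.08 on the 6 h arrays and rose by 2.29 (SE 0.14, limma adjusted p = 1.07e-06). A second dirigent gene, AT4G11210, lies next but 1 to it in the RefSeq gene order on chromosome 4, with 1 annotated gene between them. It read 9.26, 9.39 and 9.83 on the 24 h arrays, against 7.82, 8.08 and 8.73 on the 6 h arrays and rose by 1.28 (SE 0.21, limma adjusted p = 0.00633). Dirigent proteins steer the coupling of phenoxy radicals in lignan and lignin formation. These were the 2 of 6 measured dirigent genes that passed, where 1.69% of all probe sets did. The median over the 6 was 0.07, the lowest difference was -0.24 and 3 differences were above 0.

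AT5G15950, an S-adenosylmethionine decarboxylase gene of polyamine synthesis, read 9.12, 8.76 and 8.70 on the 24 h arrays, against 7.43, 6.87 and 7.20 on the 6 h arrays. It rose by 1.70 (SE 0.18, limma adjusted p = 0.000215). The abundant family member SAMDC averaged 12.02 ± 0.08 at 24 h and 11.80 ± 0.07 at 6 h (SD, n = 3 each) and did not pass (limma adjusted p = 0.191), nor did AT3G25570 (0.09). A pair of genes of copper-binding cupredoxin proteins were among the 12 largest rises. AT3G27200 read 7.07, 7.28 and 7.54 on the 24 h arrays, against 4.89, 5.33 and 5.99 on the 6 h arrays and rose by 1.89 (SE 0.20, limma adjusted p = 0.000246), and AT5G26330 read 5.35, 5.31 and 5.13 on the 24 h arrays, against 3.96, 4.15 and 4.12 on the 6 h arrays and rose by 1.19 (SE 0.11, limma adjusted p = 7.96e-05). AT2G27740 rose by 1.21 (SE 0.12, limma adjusted p = 8.44e-05). With each of the 12 arrays left out in turn the calls on AT5G15950, AT3G27200, AT5G26330 and AT2G27740 held, as did those on AT5G04120, AT4G11190 and AT4G11210.

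**Figure D3:**
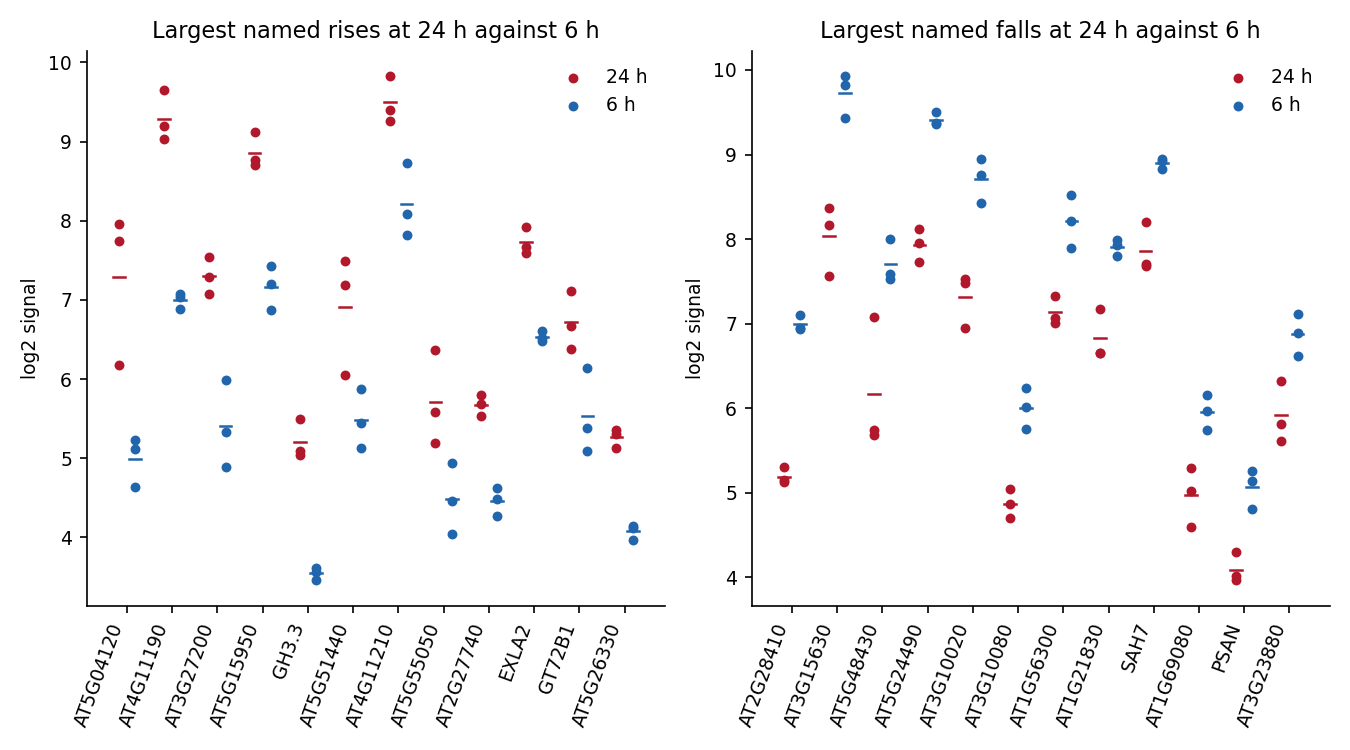
Log2 signal (vertical axis) on each of the 3 arrays at 24 h (red) and the 3 at 6 h (blue), with short lines at the means, for the 12 largest named rises (left panel) and the 12 largest named falls (right panel) past the threshold. The groups do not overlap for any of the 24 genes, which the choice of genes required, and single arrays such as 24 h replicate 3 of AT5G04120 (6.18) and of AT5G48430 (7.07) sit apart from the rest of their group.

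Of the wall-loosening families measured, the expansins and the GH9 cellulases had 1 rise each. EXLA2, an expansin-like gene, read 7.93, 7.67 and 7.59 on the 24 h arrays, against 6.52, 6.48 and 6.61 on the 6 h arrays and rose by 1.196 (SE 0.10, limma adjusted p = 2.32e-05). It was the 1 of 18 measured expansin genes that passed, where 1.69% of all probe sets did. The median over the 18 was 0.22 and 13 differences were above 0, with EXPA8 (0.76, limma adjusted p = 0.141), EXPA15 (0.40, limma adjusted p = 0.186) and EXPB1 (0.37, limma adjusted p = 0.0667) the next largest. GH9B6, a cellulase gene, read 6.81, 6.75 and 6.34 on the 24 h arrays, against 6.11, 5.63 and 5.61 on the 6 h arrays and rose by 0.85 (SE 0.14, limma adjusted p = 0.00748). It was the 1 of 15 measured GH9 genes past the threshold, where 1.69% of all probe sets passed. The median over the 15 was 0.13, with 10 differences above 0, and 8 of the genes had a mean under 5. XTH19, a xyloglucan endotransglucosylase, came close with 0.45 (limma adjusted p = 0.0553), and none of 9 XTH genes passed limma. The root hair expansins EXPA7 and EXPA18 overlapped between the times: EXPA7 read 4.73, 5.29 and 6.17 on the 24 h arrays, against 4.87, 5.19 and 5.16 on the 6 h arrays (0.32, limma adjusted p = 0.607). EXPA18 read 4.69, 4.84 and 5.79 on the 24 h arrays, against 4.84, 4.79 and 4.84 on the 6 h arrays (0.28, limma adjusted p = 0.551), and its difference was -0.058 without 24 h replicate 3. The call on GH9B6 ended without 6 h replicate 2 (limma adjusted p = 0.0527).

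In the class III peroxidase family, whose secreted enzymes cross-link or loosen the wall, 1 of 55 measured genes passed, a share near the 1.69% of all probe sets, and it fell. AT1G71695 read 4.74, 4.52 and 4.39 on the 24 h arrays, against 5.05, 5.49 and 5.89 on the 6 h arrays and fell by 0.93 (SE 0.18, limma adjusted p = 0.018). The other members ranged up to 0.78, with a median of 0.08 over the 55, and 35 of the 55 had a mean under 5. Of 22 TRICHOME BIREFRINGENCE-LIKE genes, a family acting in the acetylation of wall polymers, TBL36 alone passed, where 1.69% of all probe sets did. It read 7.81, 7.74 and 7.72 on the 24 h arrays, against 8.57, 8.34 and 8.39 on the 6 h arrays and fell by 0.68 (SE 0.09, limma adjusted p = 0.0013). Its mock mean of 8.82 was above both. No member of the RALF peptide family passed limma, RALFL31 having the smallest p (-0.31, limma adjusted p = 0.306). The call on AT1G71695 ended without 24 h replicate 2, 6 h replicate 2 and 6 h replicate 3 (limma adjusted p up to 0.0852).

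Besides IAGLU, the glycosyltransferase genes GT72B1 and UGT76B1 passed. GT72B1, a UDP-glucosyltransferase acting on phenolic compounds, read 6.39, 6.67 and 7.11 on the 24 h arrays, against 5.09, 5.39 and 6.14 on the 6 h arrays and rose by 1.19 (SE 0.22, limma adjusted p = 0.017). UGT76B1, which glucosylates immune signals such as salicylic acid, read 10.20, 10.14 and 10.12 on the 24 h arrays, against 9.21, 9.45 and 9.79 on the 6 h arrays and rose by 0.67 (SE 0.14, limma adjusted p = 0.0308). UGT76B1 was the 1 of 47 genes with a UGT symbol that passed, a share near the 1.69% of all probe sets, and the median over the 47 was 0.11, with 35 above 0. GT72B1 and IAGLU lack that symbol and are not among the 47, so this share does not cover all glycosyltransferase genes. Dropping 24 h replicate 3 made the count 3, dropping 24 h replicate 1 or 6 h replicate 3 made it 2, and it was 0 without the arrays that end the call on UGT76B1 other than 24 h replicate 1. Of 24 cytochrome P450 genes and 13 glutathione transferase genes none passed limma (smallest adjusted p 0.375 and 0.258), and their medians were 0.08 and 0.10. The call on GT72B1 ended without 24 h replicate 2, 6 h replicate 1 and 6 h replicate 2 (limma adjusted p up to 0.0928). That on UGT76B1 ended when 24 h replicate 1, 24 h replicate 2, 6 h replicate 1, 6 h replicate 2 and 10 h replicate 1 were each dropped (up to 0.132).

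Hsp70-2, a cytosolic Hsp70 chaperone gene, read 9.46, 9.22 and 9.45 on the 24 h arrays, against 8.81, 8.71 and 8.59 on the 6 h arrays and rose by 0.68 (SE 0.10, limma adjusted p = 0.00323). AT3G09440, a close relative, read 11.79, 11.66 and 11.46 on the 24 h arrays, against 11.21, 11.17 and 11.17 on the 6 h arrays and rose by 0.45 (SE 0.10, limma adjusted p = 0.0376). AT5G51440, of the small heat shock protein family, read 7.49, 7.19 and 6.05 on the 24 h arrays, against 5.13, 5.45 and 5.87 on the 6 h arrays and rose by 1.43 (SE 0.29, limma adjusted p = 0.025). These were 3 of 9 measured heat shock genes, where 0.761% of all probe sets rose, on a list drawn up after calls among them had been seen, and the median over the 9 was 0.05. The count was 1 when 24 h replicate 1, 24 h replicate 2, 6 h replicate 1 or 6 h replicate 2 was dropped. The other 6 did not pass, with differences between -0.43 and 0.19. The call on AT5G51440 ended without 24 h replicate 1, 24 h replicate 2, 6 h replicate 1 and 6 h replicate 2 (limma adjusted p up to 0.11), and that on AT3G09440 without 24 h replicate 1, 24 h replicate 2, 6 h replicate 1, 6 h replicate 2, 6 h replicate 3, 10 h replicate 1, 10 h replicate 2, 10 h replicate 3 and mock replicate 2 (limma adjusted p up to 0.153).

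A pair of acyltransferase genes of the thalianol cluster, a group of neighbouring genes that make root triterpenes, rose as well, and were singled out after their values were seen. AT5G47980 read 5.92, 5.94 and 6.14 on the 24 h arrays, against 5.22, 5.26 and 5.06 on the 6 h arrays and rose by 0.82 (SE 0.15, limma adjusted p = 0.0137), and AT5G47950 read 8.05, 8.05 and 8.13 on the 24 h arrays, against 7.64, 7.52 and 7.74 on the 6 h arrays and rose by 0.45 (SE 0.09, limma adjusted p = 0.0301). In the RefSeq gene order 2 annotated genes lie between them. AT5G55050, a GDSL lipase gene, rose by 1.23 (SE 0.28, limma adjusted p = 0.0416), with a 10 h mean of 6.23 above both the 24 h mean of 5.71 and the 6 h mean of 4.48. The call on AT5G55050 ended without 24 h replicate 2, 24 h replicate 3, 6 h replicate 1, 6 h replicate 2, 10 h replicate 1, 10 h replicate 2 and mock replicate 2 (limma adjusted p up to 0.157), that on AT5G47950 without 24 h replicate 1, 24 h replicate 2, 24 h replicate 3, 6 h replicate 1 and 6 h replicate 2 (up to 0.166) and that on AT5G47980 without 6 h replicate 3 (0.0505).

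The most significant named fall was AT2G28410, which read 5.12, 5.30 and 5.15 on the 24 h arrays, against 7.10, 6.94 and 6.95 on the 6 h arrays. It fell by 1.81 (SE 0.09, limma adjusted p = 1.53e-07), a 3.5-fold difference. Its means at mock and 10 h, 7.10 and 6.78, were nearer that at 6 h than that at 24 h. AT3G10080, of the cupin family, read 4.70, 5.05 and 4.86 on the 24 h arrays, against 5.76, 6.01 and 6.24 on the 6 h arrays and fell by 1.13 (SE 0.14, limma adjusted p = 0.000777). SAH7, related to Ole e 1 pollen allergens, read 7.69, 7.70 and 8.20 on the 24 h arrays, against 8.84, 8.95 and 8.92 on the 6 h arrays and fell by 1.04 (SE 0.13, limma adjusted p = 0.000771). Both likewise had 10 h means nearer those at 6 h, 6.27 for AT3G10080 and 8.92 for SAH7. These 3 calls held without any 1 of the 12 arrays.

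AT3G15630 read 7.56, 8.17 and 8.37 on the 24 h arrays, against 9.44, 9.93 and 9.83 on the 6 h arrays and fell by 1.70 (SE 0.33, limma adjusted p = 0.0195). AT5G48430, an aspartyl protease gene, read 5.69, 5.74 and 7.07 on the 24 h arrays, against 7.529, 8.004 and 7.585 on the 6 h arrays and fell by 1.54 (SE 0.31, limma adjusted p = 0.0234), with 24 h replicate 3 well above the other 24 h arrays. AT3G10020 read 6.94, 7.48 and 7.53 on the 24 h arrays, against 8.43, 8.75 and 8.95 on the 6 h arrays and fell by 1.39 (SE 0.25, limma adjusted p = 0.0116). The DnaJ chaperone gene AT1G56300 fell by 1.08 (SE 0.17, limma adjusted p = 0.00486), AT1G21830 fell by 1.08 (SE 0.16, limma adjusted p = 0.00332), AT1G69080, related to universal stress proteins, fell by 0.98 (SE 0.16, limma adjusted p = 0.00722), and the F-box gene AT3G23880 fell by 0.96 (SE 0.21, limma adjusted p = 0.0373). AT3G15630 was no longer called without 24 h replicate 1, 24 h replicate 2, 6 h replicate 2 and 6 h replicate 3 (limma adjusted p up to 0.104), AT5G48430 without 24 h replicate 1, 24 h replicate 2, 6 h replicate 1, 6 h replicate 2 and 6 h replicate 3 (up to 0.126), AT3G23880 without 24 h replicate 1, 24 h replicate 3, 6 h replicate 1, 6 h replicate 2, 10 h replicate 1 and 10 h replicate 3 (up to 0.177) and AT3G10020 without 6 h replicate 2 (0.0617).

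Several genes linked to dehydration and cold fell. Of 11 measured members 5 passed, all lower, where 0.928% of all probe sets did, and the median over the 11 was -0.20. The list was chosen with earlier results of these data known, so its count is description only. AT1G13930, a salt stress gene, read 7.18, 7.30 and 7.48 on the 24 h arrays, against 8.14, 8.02 and 8.37 on the 6 h arrays and fell by 0.86 (SE 0.16, limma adjusted p = 0.0146). LTI30, a dehydrin, read 9.67, 9.61 and 9.41 on the 24 h arrays, against 10.30, 10.08 and 10.66 on the 6 h arrays and fell by 0.78 (SE 0.13, limma adjusted p = 0.00748). AT4G33980 and COR27, a pair of related clock-regulated genes of the cold response, fell by 0.80 (SE 0.11, limma adjusted p = 0.00181) and 0.63 (SE 0.11, limma adjusted p = 0.00905). AT4G30650, of a family of small membrane proteins, read 10.06, 9.73 and 9.49 on the 24 h arrays, against 10.30, 10.23 and 10.63 on the 6 h arrays and fell by 0.63 (SE 0.14, limma adjusted p = 0.0396). In each of the 5 the 6 h mean was above the mock mean. AT1G13930 averaged 8.18 at 6 h and 6.00 in mock tips, LTI30 10.35 and 9.26, AT4G33980 5.79 and 5.02, COR27 4.23 and 3.60, and AT4G30650 10.39 and 9.59.

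The dehydrin COR47 averaged 10.47 ± 0.27 at 24 h and 10.60 ± 0.17 at 6 h (SD, n = 3 each) and did not pass (limma adjusted p = 0.69), and the other 5, among them COR15A and COR15B, were dim. All 11 differences were below 0, and 9 were under median centring. The clock gene GI differed by -0.28 (limma adjusted p = 0.147), and PDC2, a pyruvate decarboxylase of ethanol fermentation, by -0.58 (limma adjusted p = 0.0719). The defensin family gene LCR69 differed by -0.71 (limma adjusted p = 0.0722), and WRKY53 by -0.61 (limma adjusted p = 0.247). Calls in the dehydration and cold list numbered 3 when 24 h replicate 2, 6 h replicate 2 or 6 h replicate 3 was dropped. AT1G13930 was no longer called without 24 h replicate 2 and 6 h replicate 3 (limma adjusted p up to 0.0545), nor COR27 without 6 h replicate 2 (0.0619), nor AT4G30650 without 24 h replicate 2, 24 h replicate 3, 6 h replicate 1, 6 h replicate 2, 6 h replicate 3, 10 h replicate 1, 10 h replicate 2 and mock replicate 2 (up to 0.132). The call on LTI30 ended in a fit of the 6 arrays at 24 h and 6 h alone.

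Nuclear genes for plastid proteins formed another set of falls. AT5G24490, whose product is related to a ribosome-associated protein of plastids, read 7.73, 8.12 and 7.96 on the 24 h arrays, against 9.37, 9.50 and 9.37 on the 6 h arrays and fell by 1.48 (SE 0.28, limma adjusted p = 0.0167). The plastid ribosomal protein genes AT4G17560, AT3G13120 and AT3G54210 fell by 0.57 (SE 0.10, limma adjusted p = 0.0128), 0.51 (SE 0.10, limma adjusted p = 0.0265) and 0.47 (SE 0.09, limma adjusted p = 0.02). Plastid ribosomal proteins were made a list after calls among them had been seen, and of its 10 measured genes 4 passed, all lower, where 0.928% of all probe sets fell, with a median of -0.32 and no difference above 0. Averaged over the 10, the arrays read 8.21, 8.20 and 8.28 at 24 h, against 8.69, 8.72 and 8.64 at 6 h, and 8.30, 8.42 and 8.59 on mock plates. In these averages the 24 h and 6 h arrays did not overlap, and the mock arrays lay between them. A list made after calls were seen favours such a gap, so it adds no support. The number of these genes called was 0 without 6 h replicate 1 and 0 without 6 h replicate 2, where all 10 differences stayed below 0 and the medians were -0.37 and -0.28. By gene, the calls ended without 6 h replicate 1 and 6 h replicate 2 for AT5G24490 (limma adjusted p up to 0.0829), and without 6 h replicate 1 and 6 h replicate 2 for AT4G17560, 24 h replicate 1, 24 h replicate 2, 6 h replicate 1, 6 h replicate 2 and 6 h replicate 3 for AT3G13120 and 24 h replicate 2, 6 h replicate 1 and 6 h replicate 2 for AT3G54210 (limma adjusted p up to 0.064, 0.103 and 0.12). AT3G13120 was also not called under either centring, which left 3 of the 10, nor in the 6 arrays alone. Among the others AT2G43030 differed by -0.29 (limma adjusted p = 0.0561) and AT5G65220 by -0.06 (limma adjusted p = 0.771).

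Photosynthesis genes of the nucleus, listed as markers of leaf tissue, were low in these tips. Of 8 measured members 2 passed, both lower, where 0.928% of all probe sets fell. PSAN, a photosystem I subunit, read 3.96, 4.30 and 4.02 on the 24 h arrays, against 4.81, 5.26 and 5.14 on the 6 h arrays and fell by 0.98 (SE 0.20, limma adjusted p = 0.0263), and LHCB4.1, an antenna protein of photosystem II, read 5.59, 5.54 and 5.13 on the 24 h arrays, against 6.19, 5.93 and 6.13 on the 6 h arrays and fell by 0.66 (SE 0.13, limma adjusted p = 0.0211). LHCB4.2 (-0.43, limma adjusted p = 0.0694) and PSB27 (-0.41, limma adjusted p = 0.0742) did not pass, and the other 4 differed by 0.06 to 0.13. The mean over the 8 was 4.75, 4.86 and 4.79 at 24 h, against 5.03, 5.05 and 5.12 at 6 h, and 4.70, 4.89 and 4.92 on mock plates. Without 6 h replicate 3 none of the 8 was called, and the count was 1 when 24 h replicate 1, 24 h replicate 3, 6 h replicate 1 or 6 h replicate 2 was dropped. The part of such tissue in the result was not tested. Of 69 genes of the plastid genome itself, also listed after values were known, psbK passed, a share under the 1.69% of all probe sets. It read 7.88, 7.70 and 7.76 on the 24 h arrays, against 8.34, 8.19 and 8.11 on the 6 h arrays and fell by 0.43 (SE 0.09, limma adjusted p = 0.0228). The median over the 69 was -0.17, with 15 above 0, while the median over 22 probe sets of the mitochondrial genome was -0.0028. The call on psbK ended with arrays centred on their medians and without 24 h replicate 2, 6 h replicate 1 and 6 h replicate 2 (limma adjusted p up to 0.0939), that on PSAN without 24 h replicate 1, 24 h replicate 3, 6 h replicate 2 and 6 h replicate 3 (up to 0.135) and that on LHCB4.1 without 6 h replicate 1 and 6 h replicate 3 (up to 0.0864).

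In autophagy, ATG8 proteins are attached to the membrane that encloses the cargo. ATG8F read 7.28, 7.31 and 7.40 on the 24 h arrays, against 7.87, 7.98 and 8.12 on the 6 h arrays and fell by 0.66 (SE 0.13, limma adjusted p = 0.0211), the 1 of 10 measured genes past the threshold, where 0.928% of all probe sets fell. All 10 differences were below 0 (9 without 24 h replicate 3), with a median of -0.35 against -0.0039 over all probe sets. ATG8D (-0.44, limma adjusted p = 0.0524), APG8H (-0.34, limma adjusted p = 0.0726) and ATG8C (-0.47, limma adjusted p = 0.0857) did not pass. ATG8E had the largest difference, -0.73 (limma adjusted p = 0.247), and read 3.82, 3.94 and 4.39 on the 24 h arrays, against 4.34, 4.86 and 5.13 on the 6 h arrays. Of the 10 genes 9 are ATG8 copies of similar sequence, so their probe sets may share targets. The call on ATG8F ended without 24 h replicate 1, 24 h replicate 2, 6 h replicate 2 and 6 h replicate 3 (limma adjusted p up to 0.0917), and 3 of the 10 were called without mock replicate 3.

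**Figure D4:**
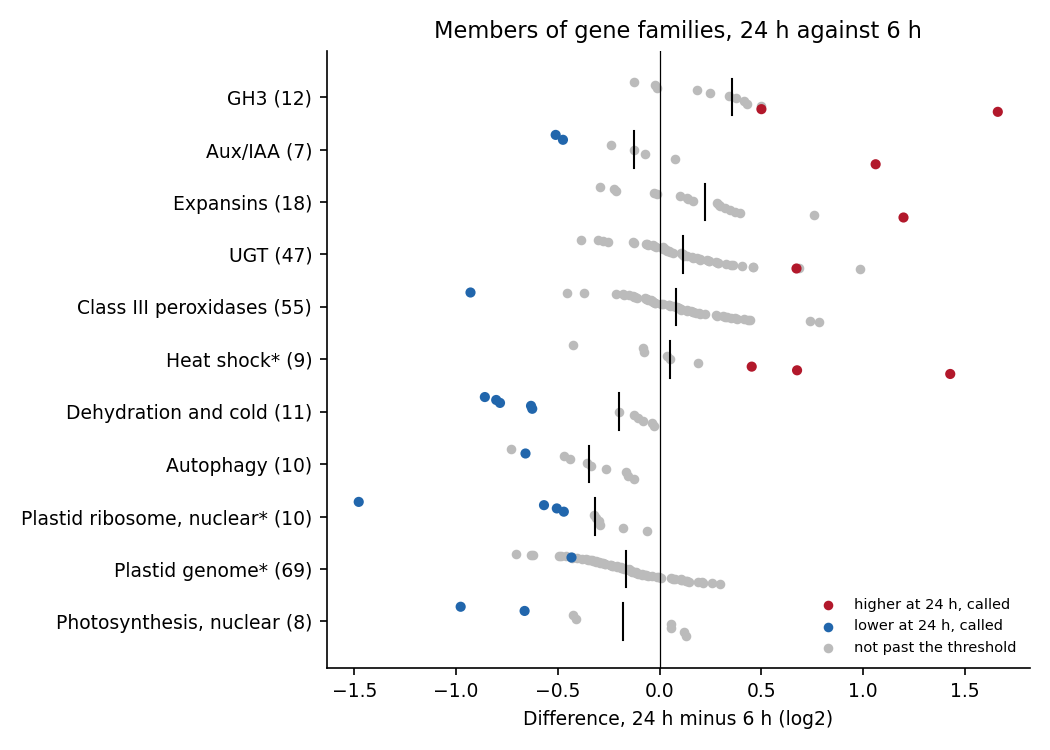
Differences between 24 h and 6 h (log2, horizontal axis) of the members of 11 gene families (rows, number of probe sets in brackets), red where called higher at 24 h, blue where called lower and grey where not past the threshold, with a black line at each median. The dehydration and cold, autophagy and nuclear plastid ribosome families have all their points below 0. An asterisk marks families listed after values of this comparison had been seen. The other families were also chosen with earlier results of these data known.

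The 10 h arrays, which had no part in the difference, mostly lay between the times compared. The 10 h mean was between the 24 h and 6 h means for 307 of the 384 called probe sets (79.9%), where it was for 35.6% of all tested. Calls have a wide gap between the means, into which another mean falls more easily. It was closer to the 6 h mean for 247 of the 384 (64.3%), and for 53.2% of all tested. Among falls 149 of 211 (70.6%) had a 10 h mean closer to that at 6 h, and among rises 98 of 173 (56.6%). The mock mean was closer to the 24 h mean for 181 of the 384 (47.1%) and closer to the 6 h mean for 203 (52.9%), where the shares over all tested were 48.2% and 51.8%. Calls of both kinds were present, those with mock tips near the 24 h level and those with mock tips near the 6 h level.

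The same difference between 24 h and 6 h came with different starting levels. The comparisons of each time with mock tips share arrays with each other and with the one described here, so their values are given side by side only. At the same threshold 0.422% of probe sets passed at 6 h against mock tips, 7.5% at 10 h against mock tips and 0.761% at 24 h against mock tips, 1.24% at 10 h against 6 h and 1.79% at 24 h against 10 h. GH3.3 differed from mock tips by 0.08 at 6 h and by 1.75 at 24 h. AT3G27200 differed by 0.12 at 6 h and 2.01 at 24 h, and AT5G26330 by 0.13 and 1.32. These genes were near the mock level at 6 h and above it at 24 h. By contrast AT5G04120 differed from mock tips by -2.31 at 6 h and by -0.01 at 24 h. AT4G11190 differed by -1.93 at 6 h and 0.36 at 24 h, EXLA2 by -1.08 and 0.11, GH9B6 by -1.02 and -0.17, and AT5G15950 by -1.26 and 0.44. These were under the mock level at 6 h and close to it, or above it, at 24 h.

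The falls divided in the same manner in part. AT2G28410 differed from mock tips by -0.10 at 6 h and by -1.91 at 24 h, and SAH7 by -0.10 and -1.14. AT1G56300 differed by 1.13 at 6 h and 0.05 at 24 h. AT1G13930 differed by 2.17 and 1.31, so it was still above the mock level at 24 h (limma adjusted p = 0.00078). AT5G24490 differed from mock tips by 0.60 at 6 h (limma adjusted p = 0.522) and by -0.88 at 24 h (limma adjusted p = 0.212), and neither passed. Its mock arrays were spread from 7.93 to 9.51. The 10 h mean lay outside both means by most in AT1G13930, at 9.04 above 7.32 at 24 h and 8.18 at 6 h. AT5G55050 and AT1G69080 (6.25 at 10 h) came next. Below both lay AT5G18840, a sugar transporter gene (5.64 at 10 h), AT5G15950 (7.04) and RBL, a nucleolar regulator of floral determinacy (9.05). AT5G18840 rose by 0.71 (SE 0.16, limma adjusted p = 0.0442) and RBL by 0.45 (SE 0.10, limma adjusted p = 0.029). The call on AT5G18840 ended without 24 h replicate 1, 24 h replicate 2, 24 h replicate 3, 6 h replicate 1, 6 h replicate 2, 6 h replicate 3, 10 h replicate 1 and 10 h replicate 3 (limma adjusted p up to 0.148), and that on RBL without 24 h replicate 1, 24 h replicate 2, 6 h replicate 2 and 6 h replicate 3 (up to 0.123).

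**Figure D5:**
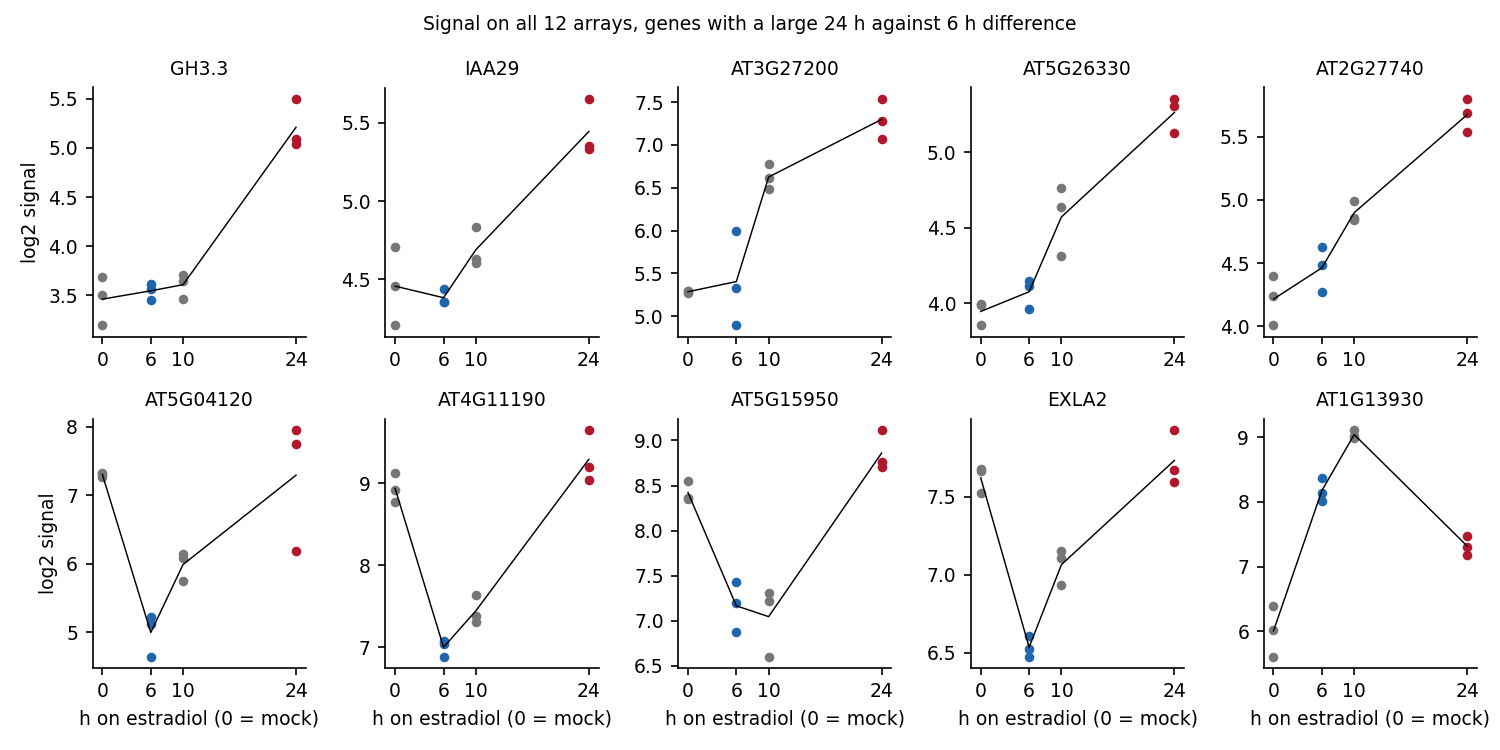
Log2 signal (vertical axes, each with its own range) on all 12 arrays against hours on estradiol (horizontal axes, 0 being mock plates), blue at 6 h, red at 24 h and grey at the other times, with a line through the means. In the upper row the mock and 6 h arrays lie together below the 24 h arrays, and in the first 4 panels of the lower row the 6 h arrays lie below both the mock and the 24 h arrays.

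Among the 187 calls without a single gene name were the most extreme of both signs. The largest rise averaged 8.74 at 24 h and 6.37 at 6 h, and rose by 2.37 (SE 0.15, limma adjusted p = 9.47e-07). The largest fall read 4.44, 4.57 and 6.63 on the 24 h arrays, against 7.89, 8.66 and 8.79 on the 6 h arrays, and fell by 3.23 (SE 0.60, limma adjusted p = 0.0158). Of 50 called probe sets with a mean under 5, 25 rose and 25 fell. The cell cycle genes AUR1, AUR2, AUR3, PRL and ICU2 did not pass, PRL coming nearest (0.16, limma adjusted p = 0.436), nor did the endodermal receptor kinase GSO1 (0.11, limma adjusted p = 0.827), the small RNA gene AGO7 (0.20, limma adjusted p = 0.4), the ethylene signalling gene RTE1 (-0.26, limma adjusted p = 0.316) or the nitrate transporter gene NRT2.5 (-0.14, limma adjusted p = 0.59).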

How the data were processed

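Per the labels, 250 ng of total RNA went onto each of 12 Affymetrix ATH1 arrays, which use a single colour. The deposited values are log2 signals, and per the submitters' processing notes Affymetrix Expression Console, RMA and limma were used, with versions and roles not given in the sources used here. RMA adjusts background and distributions, and it understates changes of dim genes. The depth of an array has no count, so the number of arrays limits the precision.

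The arrays hold 22810 probe sets. Without the 64 controls, 22746 were fitted as deposited in 1 linear model over 12 arrays with limma 3.58.1 (R 4.3.3), with Benjamini-Hochberg adjustment over all of them and a threshold of 0.05. GEO's platform annotation gave 13513 probe sets 1 gene symbol, 503 several and 8730 none, and 13436 were found in the RefSeq table (TAIR10.1). Many well-studied genes have no named probe set here. Sequences were not used here, so no promoter was searched.

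The members, lists and rules were chosen with earlier results of these data known. Named are PHV, the 12 largest named rises and falls without overlap between groups, up to 4 called members of each list or else the member with the smallest p, and 3 genes each with a 10 h mean furthest above or below both. Other genes named were chosen after their values were seen. Lists with no measured gene were root cap, jasmonate, and cytosolic ribosomal proteins. Lists are described by counts and medians with no set test. Alternatives were the 6 arrays alone, a replicate block, 3 scalings, a filter on means of 5 or less, other moderation, array weights, a 1.2-fold minimum, other thresholds and each array left out. Deviations of same-numbered 24 h and 6 h arrays correlated with r = 0.158, -0.077 and 0.279, and those of different-numbered ones with r between -0.258 and 0.157. These few values do not settle whether the numbers mark pairs. The main fit did not take them as pairs, and fits with the number as a block are given below. In simulated data with 100 probe sets changed by 0.5 and 100 by 1 at 24 h, among 22746, 76 and 100 were recovered with 13 false calls.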

Additional observations from a re-analysis of the deposited data

Results flagged for a closer look

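Array control probe sets took no part in the tests. Of 19 that carry Arabidopsis sequences, the 3 arrays of a time all lay above the 3 mock arrays for 1 at 24 h and for 5 at 6 h, and all of these were ubiquitin probe sets. At 24 h the 3' set AFFX-r2-At-Ubq-3_x_at was higher than on the mock arrays by 0.163. At 6 h that set was higher by 0.306 and AFFX-r2-At-Ubq-5_x_at by 0.251, and the older sets AFFX-Athal-Ubq_3_f_at, AFFX-Athal-Ubq_5_f_at and AFFX-Athal-Ubq_M_f_at were higher by 0.209, 0.302 and 0.253. The suffixes of these names mark probes that match several genes, so the values belong to ubiquitin genes jointly. These differences were not tested.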

How the results depend on the processing

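The count of 384 calls was 178 with the 6 arrays of the 2 times alone, 588 with an intensity trend and robust moderation, 2670 with array weights and 45 with a 1.2-fold minimum. At an adjusted p of 0.01 it was 99 and at 0.1 it was 831. It lay between 110 and 565 with each array left out. The cause of these shifts was not tested, except that other thresholds and the fold minimum change the count by construction and that 6 arrays leave fewer samples for the spread. Under the 3 scalings and the filter on dim probe sets it lay between 444 and 551, and centring each array on its median moved the median difference of all probe sets to 0.04. With the replicate number as a block it was 511, of which 361 were among the 384, and 548 in the 6 arrays alone, a fit added after the data were seen, as was a fit without the mock arrays (475). PHV differed by -0.145 to 0.00265 with each array left out, the upper value without 24 h replicate 3, and was not called under any alternative. LHW had the opposite sign with array weights (0.0555) and ranged from -0.178 to 0.0461 with each array left out. EXPA18 ranged from -0.0581 to 0.488 and GSO1 from -0.0399 to 0.254. The sign turned without 24 h replicate 3 in all 4 genes, and in GSO1 also without 6 h replicate 1 (-0.016). No other gene named by the rule changed sign. Of 48 calls on genes named by the rule, 19 were lost in the 6 arrays alone and 34 with the 1.2-fold minimum. Without detection calls, dim probe sets limit what can be said of genes near background.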

Other observations

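Some called genes outside the lists, picked after their values were seen, add to the description. AGL42, a MADS-box gene known from the quiescent centre, read 4.60, 4.48 and 3.98 on the 24 h arrays, against 4.79, 5.52 and 5.41 on the 6 h arrays, and fell by 0.88 (SE 0.19, limma adjusted p = 0.0321). NDB2, an alternative NAD(P)H dehydrogenase of mitochondria, rose by 0.73 (SE 0.11, limma adjusted p = 0.00486). ACT11, an actin gene, rose by 0.56 (SE 0.10, limma adjusted p = 0.0129), and YAO, a nucleolar WD40 protein gene, rose by 0.46 (SE 0.09, limma adjusted p = 0.0263). CML38, a calmodulin-like gene known to respond to hypoxia, read 5.36, 5.29 and 5.15 on the 24 h arrays, against 5.78, 6.11 and 5.77 on the 6 h arrays and fell by 0.62 (SE 0.10, limma adjusted p = 0.00633). Neighbours in the RefSeq gene order moved the same way in AT4G35200 and AT4G35210 (-0.79 and -0.93) and in AT1G52710 and AT1G52720 (-0.52 and -0.40), and in opposite ways in AT5G18840 and AT5G18850 (0.71 and -0.63). With each array left out in turn the calls on NDB2, CML38 and AT4G35200 held. That on AGL42 ended without 24 h replicate 2, 24 h replicate 3, 6 h replicate 2, 6 h replicate 3 and 10 h replicate 1, that on YAO without 24 h replicate 1, 24 h replicate 2, 6 h replicate 2 and 6 h replicate 3, that on ACT11 without 6 h replicate 1 and 6 h replicate 2, that on AT4G35210 without 24 h replicate 2, 6 h replicate 1 and 6 h replicate 2, that on AT5G18850 without 24 h replicate 3, 6 h replicate 1, 6 h replicate 2 and 6 h replicate 3 and those on AT1G52710 and AT1G52720 both without 24 h replicate 2 or 6 h replicate 1, and that on AT1G52720 also without 6 others (limma adjusted p up to 0.176 over these genes).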
